A study of Mus musculus with 24 samples.

Results

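Open chromatin was compared between cultured epidermal stem cells (EpdSCs) that made wild-type SOX9 (WT-SOX9) and the same kind of culture kept without doxycycline (noDOX). The deposited peak lists held 53093 noDOX peaks and 52278 WT-SOX9 peaks, and peaks that shared at least 1 bp were joined into 66993 regions, out of 134385 regions when all 12 lists of the series were joined. A region with a peak in the WT-SOX9 list alone was called opened, one with a peak in the noDOX list alone was called closed, and one with a peak in both was called kept. By this rule 14094 regions (21% of the 66993) were opened, 14940 (22.3%) were closed and 37959 (56.7%) were kept.

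SOX9 is a transcription factor of the SOX family that binds the minor groove of DNA through its HMG box and specifies, among other lineages, hair follicle stem cells (HFSCs) and cartilage. It is described as a pioneer factor, a protein that can bind its sites while they are wrapped in nucleosomes. ATAC-seq reads out open chromatin, because the Tn5 transposase inserts sequencing adapters where DNA is accessible, and a peak marks a place where many insertions fell. EpdSCs are the basal keratinocytes that renew the epidermis and normally hold SOX9 silent.

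The series followed EpdSCs in which SOX9 was switched on, in skin and in culture, and held 24 samples in 12 groups of 2 replicates each. Every sample came from male CD1 mice carrying K14rtTA, which places the doxycycline-controlled activator under the keratin 14 promoter of basal keratinocytes. Both culture groups compared here carried the label genotype K14rtTA with TRE-myc-Sox9 and came from keratinocytes of mouse back skin. The methods describe cultures of that transgenic genotype and also myc-tagged SOX9 constructs delivered by lentivirus and selected with puromycin in Krt14-rtTA EpdSCs, and beyond the genotype the labels do not say which of these the libraries came from. The noDOX cultures differed from the WT-SOX9 cultures in receiving no doxycycline, which was otherwise given at 1 µg/ml. A label of day 3 of doxycycline was given for WT-SOX9 replicate 1 and of day 0 for noDOX replicate 1, with none for the second replicates. In this comparison SOX9 cannot be told apart from doxycycline itself, or from time in culture where that differed. The skin samples named below were sorted EpdSCs after no induction (D0) or after 1, 2, 6 or 12 weeks of it (W1, W2, W6 and W12), of which W12 came from newborn skin grafted onto Nude hosts. By the labels the D0 mice were 21 days old, the W1 mice 28, the W2 mice 35 and the W6 mice 63, so age and time of induction cannot be told apart in skin.

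The replicates of each group had been pooled before peaks were called, so each group gave 1 list, and no test between the groups could be run. Intervals below are 95% Wilson intervals that cover counting error over regions only, since regions of 1 list are not replicates, and read depth is not recorded in the lists. The number attached to each peak is a score that the authors normalized after peak calling, read here as a relative peak height with a deposited minimum of 3. Marker genes of keratinocytes had a peak within 1000 bp of a transcription start site (TSS) for 12 of 12 genes in both lists, with scores of 4.62 to 76.4 in WT-SOX9. Peaks lay at 2 of 10 fibroblast markers, 2 of 8 melanocyte markers and 3 of 7 endothelial markers in both lists, and at 3 of 9 immune markers without doxycycline against 1 of 9 with WT-SOX9. In WT-SOX9 these peaks scored 9.06 to 11.5 for fibroblast, 29.8 to 56.8 for melanocyte and 6.67 to 70.1 for endothelial markers. The immune one scored 6.02, so all lay within the range of the keratinocyte markers. Over the Sox9 gene itself the culture lists had peaks in both groups, and the WT-SOX9 peak ran across its exons, where DNA of the construct and of the gene cannot be told apart.

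Sequences of the strongest opened and closed regions that held the short motifs counted below are shown first, because the classes were most unlike in these motifs. All are from the plus strand of GRCm38 (mm10), cover the central 200 bp of the region, and were read from the reference genome. Capitals mark each match to the SOX motif, ACAATGG or ACAATAG on either strand (CCATTGT or CTATTGT on the printed strand when reversed). The first group holds the highest-scoring opened regions with such a match, and the last lines give the highest-scoring opened region with a match near Sox6, Sox5 and Elmo1, genes with many opened regions.
opened, intron of Dock2, chr11:34739021-34739220, + strand: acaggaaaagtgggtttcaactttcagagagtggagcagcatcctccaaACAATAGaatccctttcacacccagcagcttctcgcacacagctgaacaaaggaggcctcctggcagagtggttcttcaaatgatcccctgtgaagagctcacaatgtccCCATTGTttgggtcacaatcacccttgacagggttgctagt
opened, near Gm15473, chr6:16995680-16995879, + strand: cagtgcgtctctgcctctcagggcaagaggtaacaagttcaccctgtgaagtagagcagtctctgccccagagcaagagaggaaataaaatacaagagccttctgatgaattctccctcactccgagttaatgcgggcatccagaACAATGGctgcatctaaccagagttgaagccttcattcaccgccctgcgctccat
opened, near Mir7239, chr11:46170079-46170278, + strand: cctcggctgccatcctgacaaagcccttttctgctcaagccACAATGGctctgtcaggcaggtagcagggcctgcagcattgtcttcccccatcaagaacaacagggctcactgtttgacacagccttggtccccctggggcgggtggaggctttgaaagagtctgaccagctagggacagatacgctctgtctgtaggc
opened, intron of Sox6, chr7:115615734-115615933, + strand: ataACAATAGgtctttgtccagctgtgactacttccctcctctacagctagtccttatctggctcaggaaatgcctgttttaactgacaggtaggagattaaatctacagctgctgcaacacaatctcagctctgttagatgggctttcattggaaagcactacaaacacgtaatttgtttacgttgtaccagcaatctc
opened, intron of Sox5, chr6:144152422-144152621, + strand: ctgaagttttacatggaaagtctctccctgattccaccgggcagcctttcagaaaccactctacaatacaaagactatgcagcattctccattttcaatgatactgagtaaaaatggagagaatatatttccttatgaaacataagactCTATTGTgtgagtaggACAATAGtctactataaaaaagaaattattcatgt
opened, intron of Elmo1, chr13:20155661-20155860, + strand: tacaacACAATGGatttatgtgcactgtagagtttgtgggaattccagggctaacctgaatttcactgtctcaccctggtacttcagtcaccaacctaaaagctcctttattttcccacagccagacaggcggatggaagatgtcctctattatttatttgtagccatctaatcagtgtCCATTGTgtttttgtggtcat

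The WT-SOX9 scores of the regions behind these sequences were 88.8 in Dock2, 82.2 near Gm15473, 81.8 near Mir7239, 45.2 in Sox6, 17.7 in Sox5 and 6.46 in Elmo1, and none of the 6 had a noDOX peak. Dock2 encodes an exchange factor for the GTPase RAC, and Elmo1 a partner of such factors. The sequence from Dock2 and those from Sox5 and Elmo1 held 2 matches each.

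The next pair comes from the 10 strongest closed regions, 6 of which held an AP1 match, against 32.3% of all closed regions. Capitals mark TGAGTCA or TGACTCA, the motif of the FOS and JUN dimers.
closed, near Fam220a, chr5:143545098-143545297, + strand: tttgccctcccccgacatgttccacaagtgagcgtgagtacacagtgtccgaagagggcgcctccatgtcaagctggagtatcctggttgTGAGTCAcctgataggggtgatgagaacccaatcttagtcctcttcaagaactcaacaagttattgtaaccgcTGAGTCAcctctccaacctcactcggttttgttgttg
closed, near Gm36325, chr8:91737161-91737360, + strand: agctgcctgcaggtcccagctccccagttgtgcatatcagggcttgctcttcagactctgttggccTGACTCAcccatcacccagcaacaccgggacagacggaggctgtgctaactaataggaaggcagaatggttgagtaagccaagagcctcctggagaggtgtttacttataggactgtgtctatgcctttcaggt

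The region near Fam220a had a noDOX score of 83.3 and 2 AP1 matches, and the one near Gm36325 had a noDOX score of 35.3. Neither had a WT-SOX9 peak. With SOX9 lacking its HMG box or its transactivation domain the Fam220a region was also low, at 3.84 and 3.30. The Gm36325 region scored 46 and 56.3 in those cultures.

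A SOX core can also face a second core on the other strand, an arrangement that SOX9 is known to bind as a dimer. The highest-scoring opened regions with such a facing pair are shown with 8 bp on each side, and capitals mark the cores ACAAT and ATTGT.
opened, Dock2, 6 bp between the cores, chr11:34739163-34739194, + strand: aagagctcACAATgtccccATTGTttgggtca
opened, Lima1, 6 bp between the cores, chr15:99850376-99850407, + strand: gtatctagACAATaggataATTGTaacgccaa
opened, Agbl1, 7 bp between the cores, chr7:76408305-76408337, + strand: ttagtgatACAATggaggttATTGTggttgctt
opened, Pdcl2, 7 bp between the cores, chr5:76327433-76327465, + strand: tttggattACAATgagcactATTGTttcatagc

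WT-SOX9 scores of the regions with these pairs were 88.8 in Dock2, 49.1 for Lima1, 41.9 for Agbl1 and 38.7 for Pdcl2. The Dock2 pair shares its right-hand core with the reversed SOX match in the longer Dock2 sequence.

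The classes differed first in height and width. Opened regions had a median WT-SOX9 score of 5.62 (quartiles 3.91 to 10.1), closed regions a median noDOX score of 5.05 (3.79 to 7.37), and kept regions medians of 16.3 in noDOX and 12.6 in WT-SOX9. Opened regions therefore reached further up the scale than closed ones. A score over 20 was held by 1236 opened regions (8.77%) against 165 closed regions (1.10%), and a score over 40 by 256 against 4. The highest opened score was 101.9 and the highest closed score 83.3. Median widths were 417 bp for opened, 324 bp for closed and 691 bp for kept regions.

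Ranking each list by score showed where the changes sat. In the lowest decile of noDOX regions 71.2% (69.97 to 72.4%) had no WT-SOX9 peak, in the fifth decile 29.7%, and in the highest decile 0.0756%, which was 4 regions. In the lowest decile of WT-SOX9 regions 52.8% (51.4 to 54.1%) had no noDOX peak, in the fifth decile 27.2%, and in the highest decile 3.57% (3.102 to 4.11%), or 186 regions. Weak peaks made up most of both classes, while the highest decile held 186 opened regions and 4 closed ones. Of the regions just above the deposited minimum, with a score under 3.1, there were 634 opened (4.50%) and 873 closed (5.84%).

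**Figure D1:**
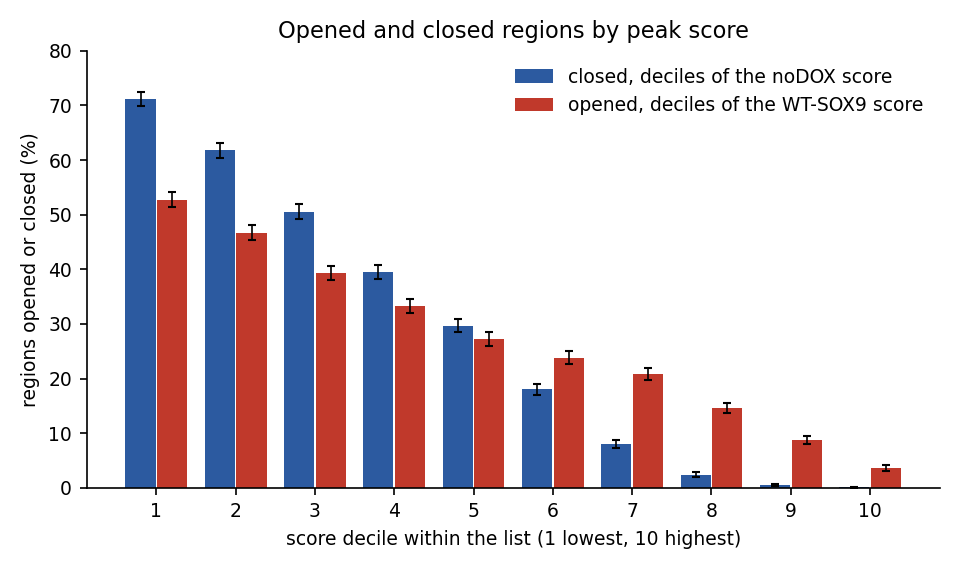
Percent of regions that were closed, by decile of the noDOX score, and percent that were opened, by decile of the WT-SOX9 score (vertical axes, with 95% Wilson intervals over regions). Closed regions thinned from 71.2% to 0.0756% from the lowest to the highest decile and opened regions from 52.8% to 3.57%.

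The highest opened region lay at chr18:3896631-3897373, an intergenic region nearest to Gm24632, with a score of 101.9. Next came a coding exon of Otogl (90.6), a noncoding exon of Fam102a nearest to Dpm2 (88.8), the Dock2 intron (88.8) and an intron of Lmnb1 (85.9), which encodes lamin B1. An intron of Mbp, which encodes myelin basic protein, scored 84.5, and regions near Gm23096, Tas2r144, Gm15473 and Mir7239 scored 82.9, 82.8, 82.2 and 81.8. A SOX match was held by those in Dock2 and near Gm15473 and Mir7239, and by no other of the 10. Over all opened regions 17% held one. None of these 10 had a peak at D0 or W1 in skin, 9 had one at W2, and all 10 had one at W6 and at W12. In the skin at W2 the Dock2 region scored 41.8, the Otogl region 32.3 and the Mir7239 region 26.7, while the Mbp region had no W2 peak.

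Among closed regions the order of noDOX scores began with the region near Fam220a (83.3), followed by intergenic regions near Gm48075 (60.2) and Gm22986 (55.7), an intron of Gm10556 (48.7) and an intron of Magi2 (37.98). Regions near 4933434M16Rik, near Gm36325, in an intron of Ascc3, in an exon of Rnaseh2b and near Gm18003 followed with 35.4, 35.3, 34.9, 33.1 and 33. Of these 10 strongest closed regions 6 held an AP1 match and 4 had a D0 peak in skin, against 32.3% and 35.3% of all closed regions.

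Opened and closed regions lay away from start sites to a similar extent, and kept regions lay closer. The median distance to a TSS was 11138 bp for opened, 10001 bp for closed and 4267 bp for kept regions. Within 1000 bp of a TSS lay 8.96% (8.50 to 9.44%) of opened regions, 9.43% (8.97 to 9.91%) of closed regions and 35.3% (34.8 to 35.8%) of kept regions. The share of opened regions was thus 26.4 percentage points and that of closed regions 25.9 points below the share of kept regions. By annotation, 53.6% of opened regions, 51.1% of closed ones and 44.1% of kept ones had their centre in an intron, and 39.5%, 41.6% and 33.8% in intergenic DNA. Median GC content was 45.5% for opened, 48% for closed and 52% for kept regions.

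Kept regions did not all hold their height. The WT-SOX9 score was at least 2 times the noDOX score in 2291 kept regions (6.04%) and at most 0.5 times in 7449 (19.6%), while 28219 (74.3%) stayed within that band. The median log2 ratio of WT-SOX9 to noDOX scores was -0.13, and it was 0.18 over 13408 kept regions within 1000 bp of a TSS and -0.43 over the 24551 others. In the doubled regions the median score was 6.02 in noDOX and 20.4 in WT-SOX9, and in the lowered ones 19.4 and 6.05. Across kept regions the scores of both lists had a Spearman correlation of 0.74 (n = 37959 regions, which share libraries and local base composition).

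Large rank gains among kept regions were near AC131675.1 (noDOX 3.05, WT-SOX9 83.2), Gm13935 (3.31 and 58.4), in an intron of Itga8 (3.31 and 52.7) and in an intron of Tead1 nearest to Gm44462 (3.01 and 41.3). Itga8 encodes integrin α8, which is listed among hair follicle stem cell markers, and Tead1 a transcription factor of the Hippo pathway. The Itga8 region had no D0 or W1 peak in skin and scored 19.98 at W2. The largest rank losses were near Gap43 (40.6 and 3.38), near Gm49418 (32.7 and 3.04), in an intron of Fkbp5 (32.7 and 3.04), near Mir21c (35.03 and 3.21) and near Gm22246 (37.9 and 3.38). Fkbp5 encodes a chaperone of the glucocorticoid receptor that its hormone is known to induce.

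The SOX motif was most frequent in opened regions and the AP1 motif in closed ones. A SOX match lay in the central 200 bp of 2398 opened regions, or 17% (16.4 to 17.6%), of 3.65% (3.36 to 3.96%) of closed regions and of 4.33% (4.13 to 4.54%) of kept regions, against 6.84% of all 66993. An AP1 match lay in 11.9% (11.4 to 12.4%) of opened regions, 32.3% (31.5 to 33%) of closed ones and 19.6% (19.2 to 20%) of kept ones, against 20.8% of all. The class shares were apart by 13.4 percentage points (12.7 to 14.1) for SOX, opened over closed, and by 20.4 points (19.4 to 21.3) for AP1, closed over opened. Among regions over 1000 bp from a TSS the SOX shares were 17.4%, 3.67% and 5.47% in opened, closed and kept regions, and the AP1 shares 12.2%, 33.3% and 27.2%. A match is a run of letters and was not tested for binding.

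Height and motif were related in opened regions. The share with a SOX match was 13.2% (12 to 14.5%) in the lowest decile of WT-SOX9 scores, 19.9% in the fifth and 27.3% (23.4 to 31.6%) in the ninth, with 21% (15.7 to 27.4%) in the highest decile. The interval of the highest decile overlapped that of the ninth but not that of the lowest. In closed regions the AP1 share was 29.9% (28.5 to 31.4%) in the lowest decile of noDOX scores and 37.7% (35.3 to 40.1%) in the fifth. It was 33.8% (30.9 to 36.9%) in the sixth and 37% (32.6 to 41.7%) in the seventh, above which few closed regions were left.

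Kept regions whose score moved differed in the same motifs. A SOX match was held by 11.4% (10.2 to 12.8%) of kept regions whose score at least doubled, 4.09% of those within the 2-fold band and 3.06% (2.69 to 3.48%) of those that at least halved. For AP1 the shares were 18.1%, 16% and 33.8% (32.7 to 34.8%). A TSS lay within 1000 bp of 22%, 43% and 10.2% of these regions. In opened regions an AP1 match was about as frequent with a SOX match (11.2%) as without one (12%).

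SOX matches in opened regions and AP1 matches in every class were most frequent at the middle of the peaks. Counted in 50-bp bins, the SOX motif occurred 52.2 and 51.7 times per 1000 opened regions in the bins on either side of the centre and 13.5 and 13.2 times in bins centred 475 bp away. In closed regions the same counts were 9.10 and 9.17 at the centre and 10.8 and 11.5 at 475 bp, so no central rise was seen. In kept regions SOX was nearly flat, with 11.3 and 11.8 at the centre and 10.3 and 10 at 475 bp. The AP1 motif occurred 114.9 and 107.3 times per 1000 closed regions at the centre against 8.57 and 8.63 at 475 bp. In opened regions AP1 occurred 35.8 and 34.3 times at the centre and 6.81 and 6.74 times at 475 bp.

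**Figure D2:**
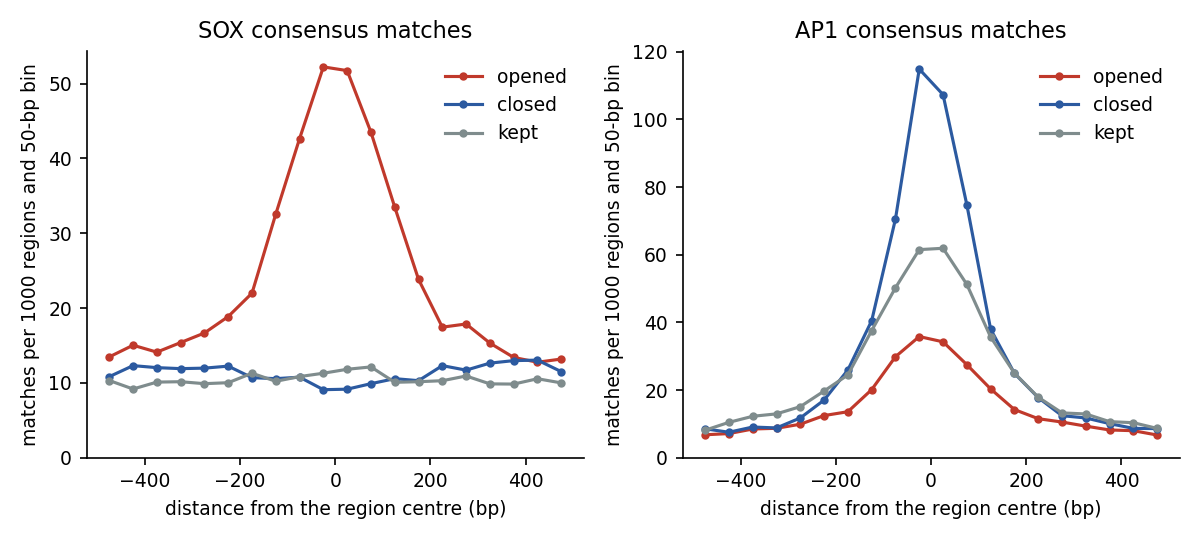
Motif occurrences per 1000 regions (vertical axis) in 50-bp bins by distance in bp from the region centre (horizontal axis), for the SOX motif and the AP1 motif in opened, closed and kept regions. SOX peaked at 52.2 in opened regions and in closed ones was 9.10 at the centre and 11.5 at 475 bp, and AP1 peaked at 114.9 in closed regions and at 35.8 in opened ones.

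Other motifs were apart by fewer percentage points. The GATA motif (AGATAA) lay in 11.9% (11.4 to 12.4%) of opened regions, 10.3% (9.85 to 10.8%) of closed ones and 6.99% of kept ones, against 8.76% of all. The RUNX motif (TGTGGTT) lay in 7.17% (6.75 to 7.60%), 5.58% (5.23 to 5.96%) and 5.33%, against 5.78% of all. Matches of the CTCF motif, the boundary factor that holds chromatin loops, were in 2.90% (2.64 to 3.19%) of opened regions, 1.17% (1.01 to 1.36%) of closed ones and 2.38% of kept ones, against 2.22% of all. Matches of the p63 motif, the master regulator of stratified epithelia, were in 0.859% (0.719 to 1.02%), 1.42% (1.24 to 1.62%) and 0.859%. The ETS motif (CCGGA followed directly by AGT) and the GC box (GGGGC followed directly by GGGG), both known from promoters, differed between kept regions and the others, with 0.114%, 0.214% and 1.38% for ETS in opened, closed and kept regions (0.852% of all) and 0.710%, 0.763% and 3.90% for the GC box (2.53% of all). Both strands were searched for every motif, and the motifs were counted separately.

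Facing pairs of SOX cores were rare and unevenly spaced. With 5 bp between ACAAT and ATTGT a pair lay in 61 opened regions (0.433%, 0.337 to 0.556%), with 6 bp in 61 and with 7 bp in 38 (0.270%). With 3 bp between the cores there were 4 such opened regions, with 4 bp 11, and with 8 bp 19. Over 5 to 7 bp, a range chosen after these values were seen, 159 opened regions (1.13%) held a pair, against 3 closed regions (0.0201%) and 49 kept regions (0.129%). Over 3 to 5 bp, the range counted first, there were 76, 6 and 29. Median WT-SOX9 scores were 6.71 for opened regions with a pair at 5 to 7 bp, 6.63 for those with a SOX match and no pair, and 5.44 for those with neither.

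Cores pointing the same way showed 1 spacing above the others. With 2 bp between them 73 opened regions (0.518%, 0.412 to 0.651%) held ACAAT followed by ACAAT, against 2 closed and 19 kept regions, and the other gaps from 0 to 12 bp gave 0.071% to 0.199% of opened regions. In 13 of the 73 regions the bases between the cores made the first core an ACAATGG match, and in 2 an ACAATAG match. Their central windows were repeat-masked over a median of 11% of bases.

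**Figure D3:**
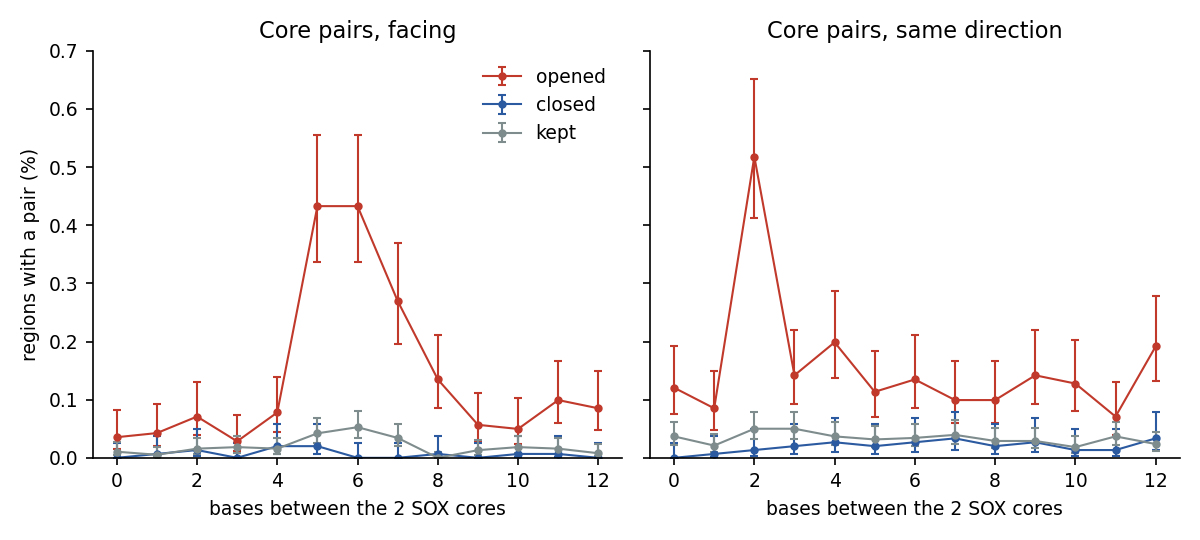
Percent of regions (vertical axis, with 95% Wilson intervals over regions) that held a pair of SOX cores, by the number of bp between the cores (horizontal axis), for facing and same-direction pairs in opened, closed and kept regions. In opened regions facing pairs peaked at gaps of 5 and 6 bp (0.433% each) and same-direction pairs at 2 bp (0.518%).

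Peaks of sorted EpdSCs in skin, which share no sample with the cultures, were laid over the same regions. Opened regions had a D0 peak in 12.7% (12.1 to 13.2%), a W1 peak in 13.9%, a W2 peak in 27.7% (27 to 28.5%), a W6 peak in 36% and a W12 peak in 31.4%. Closed regions had one in 35.3% (34.6 to 36.1%), 33.2%, 34.9% (34.1 to 35.7%), 45.5% and 50.1%. The share therefore differed between D0 and W2 by 15 percentage points (14.1 to 16) over opened regions and by -0.42 points (-1.50 to 0.661) over closed regions. Kept regions had a peak in 70.9% at D0, 76.5% at W2 and 84.1% at W12. List length itself went from 57334 peaks at D0 to 75956 at W6, with 64095 at W2 in between, and the part of list length in these shares was not tested.

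The strongest opened regions had a skin peak more often from W2 on than at D0 or W1. Of the 1236 opened regions with a score over 20, 10.1% (8.55 to 11.9%) had a peak at D0 and 7.93% (6.55 to 9.57%) at W1. The share was 50.6% (47.8 to 53.3%) at W2, 59.6% at W6 and 55.3% at W12. Of the 165 closed regions with a score over 20, 55.2% (47.5 to 62.5%) had a peak at D0 and 45.5% (38 to 53.1%) at W1. Their share was 54.5% (46.9 to 62%) at W2, 69.1% at W6 and 75.8% at W12. Opened regions with a SOX match had a peak in 6.80% (5.86 to 7.88%) at D0, 6.13% at W1, 25.5% (23.8 to 27.3%) at W2 and 34.2% at W6, and those without a match in 13.9% (13.3 to 14.5%), 15.4%, 28.2% and 36.3%. Of the 159 opened regions with a facing pair 3 had a peak at D0, 2 at W1, 45 (28.3%, 21.9 to 35.8%) at W2, 57 at W6 and 46 at W12. At D0 the shares of opened regions with a SOX match or a facing pair were thus below that of opened regions without a match.

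Gain and loss in skin were counted separately. Of opened regions without a D0 peak 19.5% (18.8 to 20.2%) had one at W2, against 11.4% (10.8 to 12.1%) of closed regions and 30.1% (29.3 to 31%) of kept regions. Within opened regions this share was 20.8% (19.2 to 22.5%) with a SOX match and 19.2% (18.4 to 20%) without one. Of closed regions with a D0 peak 22.1% (21 to 23.2%) had none at W2, against 15.6% (14 to 17.3%) of opened and 4.53% of kept regions. No peak in any of the skin lists was found for 56.8% (56 to 57.6%) of opened regions, 39.8% (39 to 40.5%) of closed ones and 10.7% of kept ones. The same was found for 61.6% of opened regions with a SOX match and 55.8% of those without one.

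**Figure D4:**
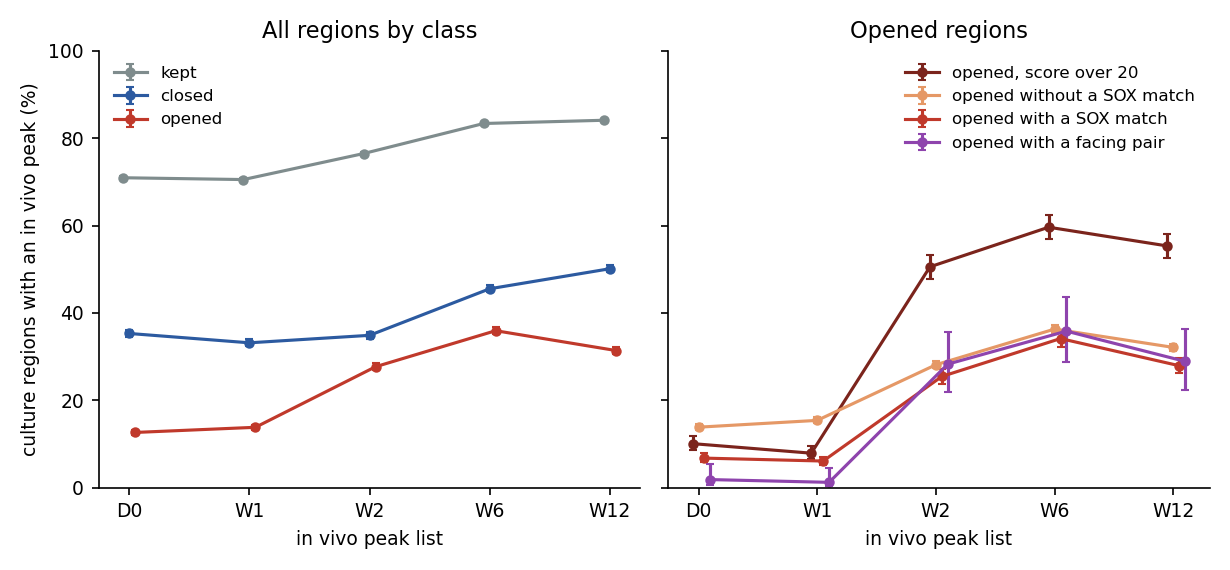
Percent of regions with a peak in the skin lists (vertical axis, with 95% Wilson intervals over regions) by time of SOX9 induction (D0 to W12, horizontal axis), for opened, closed and kept regions and for subsets of opened regions. Opened regions lay at 12.7% at D0 and 27.7% at W2, closed regions at 35.3% and 34.9%, and opened regions with a score over 20 at 10.1% and 50.6%.

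Regions were assigned to the gene with the nearest TSS within 100 kb, which placed 65345 regions at 26215 genes, of which 20.6% were opened and 22.1% closed. At least 1 opened region lay at 9304 genes, at least 1 closed region at 9764, and both at 3246. There were 384 genes with 3 or more opened and no closed regions and 481 with 3 or more closed and no opened regions.

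Genes with the largest surplus of opened regions were Elmo1 (14 opened, 1 closed, none kept), Sox6 (10, 0 and 2), Tcf4 (11, 1 and 6), Pde4d (17, 8 and 15), Col28a1 (8, 0 and 0), Fggy (10, 2 and 8), the predicted genes Gm38228 and Gm7252 (8, 0 and 1 each), Nedd4l (9, 1 and 20) and Prkg1 (10, 2 and 3). At the last surplus, 8, there were 7 genes, and those listed came first by symbol. Tcf4 encodes an E-protein partner of tissue-specific helix-loop-helix factors, Pde4d a cAMP phosphodiesterase, Nedd4l a ubiquitin ligase and Prkg1 the cGMP-dependent kinase. The WT-SOX9 scores of the 14 opened regions at Elmo1 ran from 3.03 to 22.7, and 3 of them were 20.03 or higher. At Tcf4 the opened regions with the highest scores were introns at 78.9 and 48.5, both without a D0 peak and with W2 scores of 18.6 and 5.85. The opened regions at Col28a1 scored up to 24.8, and the one at 21.5 scored 36.8 at W2 in skin with no D0 peak.

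The largest surplus of closed regions was at Psd3 (3 opened, 13 closed, 6 kept), followed by Celsr1 (1, 9 and 9), Gm14120 (0, 8 and 4), Mrtfa (0, 8 and 8), Evc2 (0, 7 and 3), 1600002D24Rik (1, 7 and 7), 9930038B18Rik (1, 7 and 9), Arhgap32 (0, 6 and 6), Chd7 (0, 6 and 2) and Col18a1 (0, 6 and 9). Celsr1 is a planar cell polarity cadherin that aligns hair follicles in mouse skin, Mrtfa a cofactor of serum response factor, Evc2 a Hedgehog component of primary cilia, Chd7 a chromatin remodeller and Col18a1 a basement membrane collagen. Several more genes tied with the last of these counts and were ordered by symbol.

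Cartilage genes that are textbook targets of SOX9 had the highest opened share of the 17 gene lists. Of 76 regions at these genes 41 were opened (53.9%, 42.8 to 64.7%, against 20.6% of all assigned regions), 9 were closed (11.8%, 6.36 to 21%, against 22.1%) and 26 were kept. Sox6 had 10 opened regions, Wwp2 7, Col9a1 and Sox5 5 each, and Col2a1, Col11a1 and Matn4 2 each, while Acan, the gene of aggrecan, had none and 1 kept region. Over the list 13 genes had more opened and 2 more closed regions, the latter Col27a1 (1 opened, 4 closed) and Matn1 (0 and 1). Of the 41 opened regions 11 held a SOX match or a facing pair (26.8%, 15.7 to 41.9%, against 17.5% of all opened regions), and a D0 peak in skin was listed for 3 (7.32%, against 12.7% of all opened regions). The W2 list had 10 (24.4%, against 27.7%), the W6 list 20 (48.8%, against 36%) and the W12 list 16 (39%, against 31.4%). Of the 26 kept regions 2 at least doubled (7.69%, against 6.04% of all kept regions) and 4 at least halved in score (15.4%, against 19.6%).

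At Sox6, which encodes a partner of SOX9 in cartilage, all 10 opened regions lay in introns. Their WT-SOX9 scores were 45.2, 32.2, 27.8, 24.8, 24, 19.1, 9.55, 5.63, 3.21 and 3.04. The region with 24.8 lay at chr7:115824500-115825546, 313 bp from a TSS, and held a facing pair of SOX cores. In skin 2 of the 10 had a W2 peak, those with 45.2 (W2 score 18.4) and 24 (15.9), and none had a D0 peak. The strongest, at chr7:115615447-115616221, is the one whose sequence is given above.

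At Wwp2, a ubiquitin ligase gene that hosts the cartilage microRNA Mir140, the opened regions had WT-SOX9 scores of 34.98, 20.8, 12.7, 11.6, 7.91, 6.59 and 3.08. The region with 20.8, chr8:107544754-107545224, lay 23 bp from a TSS inside the gene and scored 9.76 at W2, with no D0 peak. The opened regions of Col9a1, which encodes a chain of collagen IX, scored 25.5, 22, 14.3, 8.14 and 4.10, and the one with 8.14 lay 854 bp from a TSS and held a SOX match. None of the 5 had a D0 or W2 peak, and 4 had a W6 peak. At Sox5 the highest opened region scored 17.7 and held the 2 matches printed above, while a kept region 8826 bp from a TSS had a score of 28 in noDOX and 3.34 in WT-SOX9.

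The SOX family shared Sox5 and Sox6 with the cartilage list and had 45 regions, of which 22 were opened (48.9%, 35 to 63%, against 20.6%) and 7 closed (15.6%, against 22.1%). Outside those genes 7 of 24 regions were opened (29.2%, 14.9 to 49.2%) and 6 closed (25%, 12 to 44.9%). Of the 7 opened, 3 were at Sox13, which had no closed or kept region. One of these was centred on an annotated UTR of Sox13, 450 bp from a TSS, with a WT-SOX9 score of 11.8, a D0 score of 5.06 and a W2 score of 6.82. Sox9 had 1 kept region and no opened or closed one.

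Genes of epidermal differentiation and the skin barrier leaned towards closure. Of 88 regions 30 were closed (34.1%, 25 to 44.5%, against 22.1%), 11 were opened (12.5%, 7.13 to 21%, against 20.6%) and 47 were kept. The kept regions were lower too, with a median log2 score ratio of -0.85 and 20 of 47 at least halved (42.6%, 29.5 to 56.7%, against 19.6% of all kept regions). Within 1000 bp of a TSS lay 7 of the 30 closed regions (23.3%, 11.8 to 40.9%, against 9.43% of all closed regions) and 0 of the 11 opened ones (against 8.96%). These 7 were at Krtdap, a keratinocyte differentiation gene (noDOX score 20.7), S100a9, a calprotectin subunit (13.8), Abca12, the lipid transporter of lamellar granules (10.3), and Dsg1a and Dsg1b, desmogleins of suprabasal desmosomes (10.1 and 8.41). Sprr2d and Sprr1b, small proline-rich proteins of the cornified envelope, scored 7.34 and 6.30. Of these 7, Dsg1a, Dsg1b and Krtdap had a D0 peak in skin, with scores of 34.9, 17.8 and 11.9. Over all 30 closed regions of the list a skin peak was listed for 16 (53.3%, against 35.3% of all closed regions) at D0 and 15 (50%, against 34.9%) at W2. The W1 list had 13 (43.3%, against 33.2%), the W6 list 21 (70%, 52.1 to 83.3%, against 45.5%) and the W12 list 23 (76.7%, 59.1 to 88.2%, against 50.1%).

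At Dsg1a all 3 regions were closed, and at Alox12b, a lipoxygenase of the barrier, all 3 as well, with noDOX scores of 16.8, 4.75 and 3.22. Dsc2, a desmocollin, had 4 closed and 4 kept regions, and its kept region 11264 bp from a TSS scored 28.8 in noDOX and 6.01 in WT-SOX9. Abca12 went both ways, with 5 closed and 3 opened regions. Its kept region 30 bp from a TSS scored 18.5 in noDOX and 8.47 in WT-SOX9, and an opened intron with a SOX match scored 14.4.

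**Figure D5:**
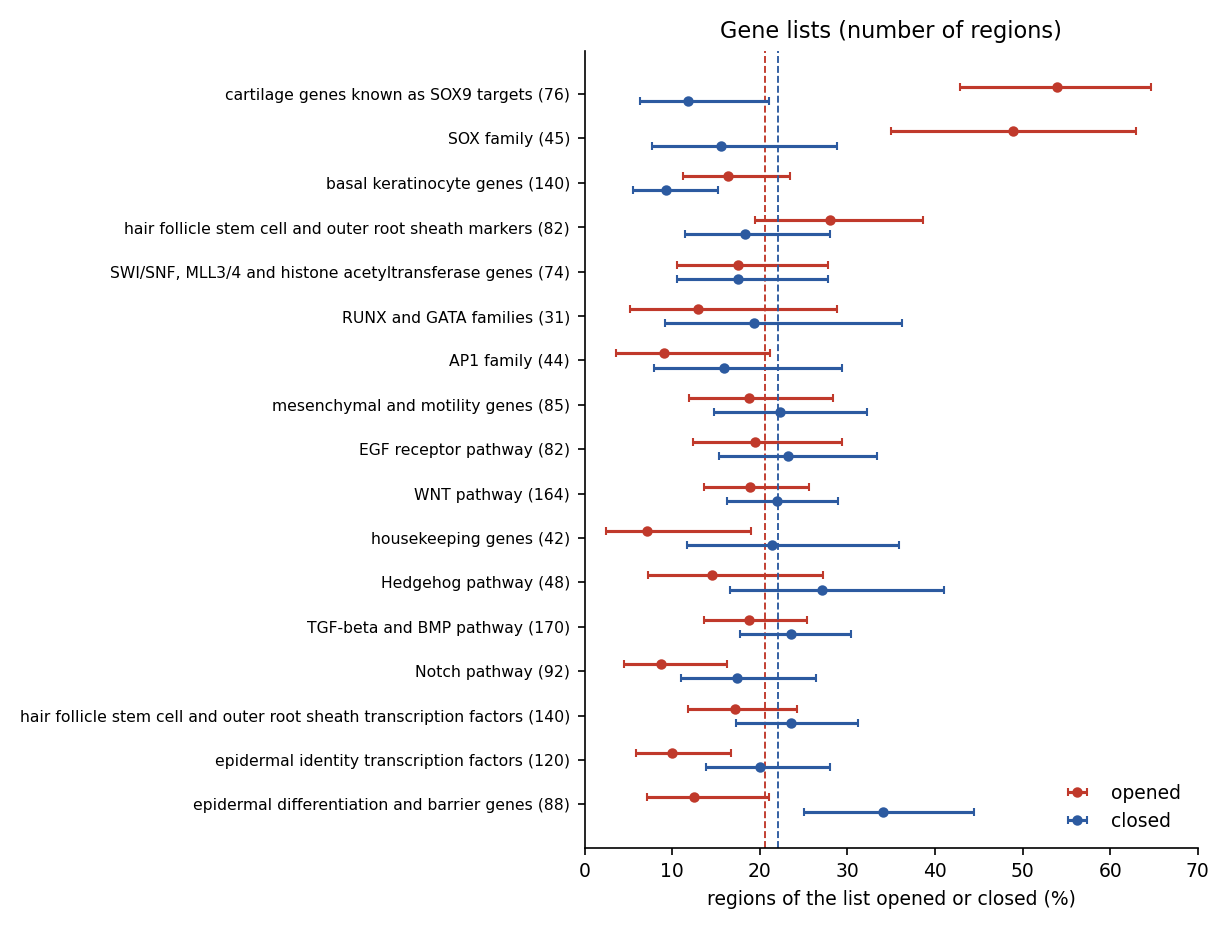
Percent of assigned regions that were opened and closed (horizontal axis, with 95% Wilson intervals over regions) for each gene list, with the shares over all assigned regions as lines. Cartilage genes lay at 53.9% opened and 11.8% closed, and differentiation and barrier genes at 12.5% opened and 34.1% closed.

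Epidermal identity transcription factors had 12 opened (10%, 5.81 to 16.7%), 24 closed (20%) and 84 kept regions, so their opened share was below the background of 20.6% and their closed share near that of 22.1%. Opened minus closed was -12, and it was -32 when only protein-coding genes were used. Of the 84 kept regions 20 at least halved (23.8%, 16 to 33.9%, against 19.6% of all kept regions) and 3 at least doubled (3.57% against 6.04%). The regions named next were chosen after their values were seen. Gata3, a zinc finger factor of epidermal and inner root sheath cells, had no opened region, 1 closed and 8 kept. Its distal kept region at chr2:9791683-9792737, 81462 bp from the TSS and with an AP1 match, scored 49.3 in noDOX and 6.55 in WT-SOX9, while the promoter scored 53.8 and 64.2. At Trp63, which encodes p63, a region 59283 bp from a TSS scored 73 and 6.25, and a region 11 bp from an internal TSS 13.8 and 4.62, whereas an intron at 47.7 in noDOX remained at 36.5. In skin the distal Gata3 region scored 32.5 at D0 and 37.1 at W2, and the distal Trp63 region 75.6 and 64.6.

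Maf, a factor of keratinocyte differentiation, had 6 closed regions with noDOX scores of 11.5, 10.01, 7.96, 4.60, 3.70 and 3.51 and 6 kept ones, and its promoter scored 26 in noDOX and 25.1 in WT-SOX9. Grhl2, a regulator of epithelial junctions, was balanced with 3 opened, 3 closed and 9 kept regions. One opened region of Grhl2 lay 225 bp from an internal TSS and held a SOX match, with a WT-SOX9 score of 8.56.

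Hair follicle stem cell genes were split. Of 82 regions at HFSC and outer root sheath markers 23 were opened (28%, 19.5 to 38.6%) and 15 closed (18.3%, 11.4 to 28%). Both intervals hold the background of 20.6% opened and 22.1% closed. Lgr6, a receptor for R-spondins that marks stem cells of the upper follicle, held 6 of the opened regions and no closed or kept one. Their WT-SOX9 scores were 13.4, 8.50, 7.76, 6.26, 4.61 and 3.42, and the last lay 72 bp from a TSS and had a D0 score of 19 in skin. Itga8 and Ptn had 2 opened and no closed regions each, while Col17a1 had 1 opened and 3 closed, and Lrig1, Bmp6 and Postn 1 and 2 each. Over the list 8 genes had more opened and 7 more closed regions. Of the 44 kept regions 4 at least doubled (9.09%, against 6.04% of all kept regions) and 10 at least halved (22.7%, against 19.6%).

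HFSC transcription factors had 24 opened (17.1%, 11.8 to 24.2%), 33 closed (23.6%, 17.3 to 31.2%) and 83 kept regions of 140. Both shares were near the background of 20.6% and 22.1%, a balance that turned (opened minus closed -9 to 3) with a score of at least 5 in both lists. Of the 83 kept regions 11 at least doubled (13.3%, 7.56 to 22.2%, against 6.04% of all kept regions) and 11 at least halved (13.3%, against 19.6%). Foxp1, a forkhead factor that restrains HFSC cycling, had 6 opened, 12 closed and 23 kept, with opened scores up to 50.6 and closed scores up to 17.7. Nfib, which maintains HFSCs with its relative NFIX, had 2 opened regions, 1 of them at 61.9 with no D0 peak and a W2 score of 5.85. Tcf7l2, a nuclear partner of β-catenin, had 4 opened and 1 closed region, and the intron at 31.8 held 2 SOX matches and scored 30.7 at W2 with no D0 peak. A kept Tcf7l2 intron scored 3.35 in noDOX and 30.5 in WT-SOX9, and 6.73 at D0 and 58.5 at W2. Runx1 had 2 opened, 4 closed and 5 kept regions, with opened introns at 27.9 and 13.1 and closed introns at 3.09 to 3.96. One kept Runx1 intron scored 6.92 in noDOX and 37.1 in WT-SOX9 and another 24.6 and 6.41. In this list 3 genes had more opened than closed regions and 8 the reverse, among them Tcf7l1 and Lef1 (0 opened and 2 closed each) and Nfatc1 (2 and 3).

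Signalling pathways had intervals that held the background of 20.6% opened and 22.1% closed, except for the opened share of the Notch list. Of 164 WNT pathway regions 31 were opened (18.9%) and 36 closed (22%), and with a score of at least 5 opened ones outnumbered closed ones by 8. Over the list 7 genes had more opened and 15 more closed regions. Among the members stood Lgr6 (6 opened, 0 closed), Znrf3 (5 and 1), a ubiquitin ligase that removes Frizzled receptors, and Lrp6 (4 and 0), a coreceptor, on one side and Wnt7a (0 and 3) on the other. Of 170 TGF-beta and BMP regions 32 were opened (18.8%) and 40 closed (23.5%), with Acvr2a (4 and 0) against Tgfbr3 (1 and 6), Acvr1 (0 and 5) and Bmpr1b (1 and 5). Notch pathway genes had 8 opened (8.70%, 4.47 to 16.2%), 16 closed (17.4%) and 68 kept regions of 92, and Jag1, a ligand, had none opened and 3 closed. Hedgehog genes had 7 opened (14.6%) and 13 closed (27.1%) regions of 48, with Shh at 0 and 2 and the receptor Ptch1 at 1 and 3. EGF receptor genes had 16 opened (19.5%) and 19 closed (23.2%) regions of 82.

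The remaining lists had the following counts. Basal keratinocyte genes had 23 opened, 13 closed and 104 kept regions of 140, a closed share of 9.29% (5.51 to 15.2%), while with a score of at least 5 in both lists closed regions outnumbered opened ones (opened minus closed -3). At Krt14 the region nearest to the promoter scored 32.8 in noDOX and 35.9 in WT-SOX9, and at Itgb1, the β1 integrin gene, the promoter scored 44.2 and 64.7. Krt5, the partner of Krt14 in basal cells, scored 15.3 in noDOX and 14.7 in WT-SOX9 in the region 34 bp from its TSS. Of its other kept regions 1 scored 23.1 and 50.6 and the other 12.8 and 9.15, and an opened region at 19.2 lay 9047 bp from the TSS. Of the 104 kept regions of basal genes 19 at least halved (18.3%, against 19.6% of all kept regions) and 6 at least doubled (5.77%, against 6.04%). Against 20.6% opened and 22.1% closed over all assigned regions, the AP1 family had 4 opened (9.09%, 3.59 to 21.2%) and 7 closed (15.9%) regions of 44. Mesenchymal and motility genes had 16 (18.8%) and 19 (22.4%) of 85, genes of SWI/SNF, MLL3/4 and histone acetyltransferases 13 and 13 of 74 (17.6% each), and RUNX and GATA families 4 (12.9%) and 6 (19.4%) of 31. Housekeeping genes had 3 opened (7.14%, 2.46 to 19%) and 9 closed (21.4%) of 42, so an opened share below the background was also seen in genes chosen as controls.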

How the data were processed

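Measured was the open chromatin of cultured EpdSCs by ATAC-seq, as 1 peak list for each group of 2 pooled replicates. The deposited score in each list is a peak score that the authors normalized after peak calling, with peaks under 3 left out. The submitters' processing notes name Bowtie2 2.2.9, Picard 2.3.0, SAMtools 1.9, MACS2 2.1.1 and deepTools 2.5.4, and the methods state that replicates were merged before MACS2 and duplicates kept. Reading the score as scaled to a common total per list was inferred from the values. The lists were joined at 1 bp of overlap (Python 3.11.15, numpy 2.4.6, pandas 2.3.3, scipy 1.17.1), coordinates are 1-based on GRCm38, and genes and TSS are those of GENCODE M21. Motifs were searched in the central 200 bp. The counting steps were tested on simulated data. Named were the 10 highest opened and closed regions, the 5 largest rank gains and losses of kept regions, the 10 genes with the largest surplus each way, and members of the 17 gene lists, of which 1 rank gain is not reported here. Regions and genes singled out within those lists, and the same-direction spacing, were chosen after their values were seen. Members and lists were chosen with earlier results of these data known.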

Additional observations from a re-analysis of the deposited data

How the results depend on the processing

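No paired analysis was possible because the replicates of each group were pooled into 1 list before deposit, so leaving out a replicate was not possible either. Of 63 alternative values of 10 results 45 stayed near the main value, 18 moved, and 1 changed sign without leaving its interval around 0: the W2 minus D0 difference of closed regions, -0.42 points, was 0.487 (-0.762 to 1.74) with a score of at least 5 in both lists. The opened count ran from 9993 to 14339 and the closed count from 10985 to 15153. All of these were taken as near the main counts of 14094 and 14940. A required overlap of 50% dropped kept regions only. Its opened and closed counts were thus fixed at the main ones, yet they are among the 45. With a score of at least 5 in both lists, the TSS difference from kept regions was -30.9 points (opened) and -31.4 (closed), the AP1 difference 19.4 and the W2 minus D0 difference of opened regions 18.5. The TSS difference was -25.6 (opened) with protein-coding TSS, -26.7 (closed) with regions over 1000 bp from any peak of the other list, and -22.5 and -20.7 with 5000 bp. In the central 100 bp and in full regions the SOX difference was 7.65 and 21.1, the AP1 difference 13.3 and 24.1, the GATA difference (closed minus opened, -1.55 over 200 bp) -0.57 and -7.13, and the difference for pairs at 3 to 5 bp (0.499 over 200 bp) 0.292 and 0.870. Pairs at 5 to 7 bp, chosen after seeing the data, gave 1.11. With skin peaks of score 5 or more the W2 minus D0 difference was 12.7. Settings without chromosomes 5, 6, 8, 16 and 18, and those over 1000 bp from a TSS, were also chosen after seeing the data. Among gene lists, a score of at least 5 turned opened minus closed counts from 10 to -3 for basal keratinocyte genes, from -9 to 3 for HFSC transcription factors and from -5 to 8 for the WNT pathway, and protein-coding genes moved epidermal identity factors from -12 to -32. The causes were not tested. Weak peaks near the score minimum limit both classes.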

Other observations

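Chromosomes differed in their share of opened and closed regions. On chromosome 5, 16.8% of regions were opened and 26.2% closed, on chromosome 16 19.6% and 26.2%, and on chromosome 8 18.3% and 23.5%. On chromosome 6, 25.8% were opened and 20.5% closed, and on chromosome 18 25.5% and 21.3%. Kept regions had a median log2 score ratio that differed from that of all kept regions by -0.18 on chromosome 5 and by -0.14 on chromosome 16, by -0.08 on chromosome 18, and by 0.07 on chromosome 6, 0.13 on chromosome 11 and 0.16 on chromosome 7. Chromosome 5 held 6.35% of the noDOX peaks and 5.70% of the WT-SOX9 peaks. Without chromosomes 5, 6, 8, 16 and 18 there were 10515 opened regions, and the part of these chromosomes in the gene counts was not tested.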
